A study of Mus musculus with 5 samples.

Results

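Potassium channel subunits are the 91 genes of the deposited table whose names begin with Kcn, followed by the letters and number of a subunit, out of 23997 gene names. They were measured by RNA sequencing of whole cortices of C57BL/6 mice at embryonic day 16 (E16). The cKO embryos were Emx1 Cre/+ Uhrf1 -/- (2 libraries, MG18 and MG19), in which a Cre recombinase driven by Emx1 removes the floxed exon 4 of Uhrf1 from the dorsal telencephalon. The control embryos were Emx1 Cre/+ Uhrf1 +/- (3 libraries, MG15, MG16 and MG17), so that both groups carry the Cre and the controls already lack Uhrf1 on 1 allele. Cells outside the Emx1 lineage, such as interneurons, microglia and vessel cells, keep Uhrf1 in both groups. The study calls the libraries biological replicates. The 91 genes were sorted by name into 20 families and 6 classes: voltage-gated pore-forming subunits, silent modifier subunits, auxiliary subunits, channels gated by intracellular calcium or sodium, inward rectifiers and 2-pore domain channels.

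Potassium channels let potassium ions leave or enter a cell along their electrochemical gradient, and in neurons they set the resting potential, end the action potential and limit repeated firing. The pore is built of several alpha subunits, which may differ from each other, and auxiliary subunits bound to the pore change its gating and its transport to the membrane. In the developing cortex many of these genes come on as postmitotic neurons mature. Uhrf1 is the protein that recognises hemimethylated CG sites behind the replication fork and brings the maintenance methyltransferase Dnmt1 to them. DNA methylation was not part of the data used here.

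Levels are in FPKM, fragments scaled by transcript length and by the mapped fragments of the library, and changes are differences of log2(FPKM + 0.1), cKO minus control, from limma fitted over 14698 genes. The added 0.1 makes the change of a gene with a low level smaller than the ratio of its FPKM values. Uhrf1 was measured at 2.75 and 2.61 FPKM in the cKO libraries, against 7.24, 13.2 and 12.95 FPKM in the control libraries, so that both cKO libraries lay below every control library (log2 fold change -1.97, SE 0.28). Markers of projection neurons, which define the tissue, summed to 2833 to 3009 FPKM in the cKO libraries and 3036 to 3462 FPKM in the control libraries, and none of the 12 was at 0 in all libraries. Progenitor markers were also present, at summed levels of 1237 to 1474 FPKM in cKO and 1620 to 2294 FPKM in control. The table holds no counts. From the steps between low values the libraries were roughly estimated at 8200000 and 9700000 fragments for cKO and 40000000, 15000000 and 10000000 fragments for control. Of the low values 61.9 to 77.9% came within 0.25 of whole fragments, where 50% would by chance at a depth fixed beforehand. The depth of each library was the best fit among many tried, which raises the share by chance by an unknown amount. The depths may thus be wrong, most of all that of MG15, with 61.9%.

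Kcnh1 was the potassium channel gene with by far the largest difference. The sequences upstream of its start and of 3 other subunit genes are shown for the number and place of their CG sites. Uhrf1 recognises such sites where they are hemimethylated, and whether the sites shown were methylated was not part of the data used. Kcnh5 is the closest relative of Kcnh1, and Kcnj4 and Kcng3 are members that differed in opposite directions. Each is the 250 bases before the RefSeq transcription start on the strand of the gene, read 5′ to 3′ from the GRCm38.p6 table of RefSeq promoters, with every CG in capitals. The windows are chr1:192190527-192190776 (plus strand) for Kcnh1, chr12:75177333-75177582 (minus strand) for Kcnh5, chr15:79505242-79505491 (minus strand) for Kcnj4 and chr17:83631896-83632145 (minus strand) for Kcng3.
Kcnh1: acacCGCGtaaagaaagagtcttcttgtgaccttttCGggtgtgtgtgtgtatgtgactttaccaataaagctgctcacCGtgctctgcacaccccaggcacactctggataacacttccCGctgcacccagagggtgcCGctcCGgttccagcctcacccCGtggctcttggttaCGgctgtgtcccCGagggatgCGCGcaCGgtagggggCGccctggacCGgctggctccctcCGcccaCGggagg
Kcnh5: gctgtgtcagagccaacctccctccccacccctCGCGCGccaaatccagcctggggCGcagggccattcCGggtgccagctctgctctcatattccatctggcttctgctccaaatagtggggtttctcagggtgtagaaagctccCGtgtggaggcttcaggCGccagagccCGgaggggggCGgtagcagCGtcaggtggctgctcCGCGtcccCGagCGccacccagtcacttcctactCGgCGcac
Kcnj4: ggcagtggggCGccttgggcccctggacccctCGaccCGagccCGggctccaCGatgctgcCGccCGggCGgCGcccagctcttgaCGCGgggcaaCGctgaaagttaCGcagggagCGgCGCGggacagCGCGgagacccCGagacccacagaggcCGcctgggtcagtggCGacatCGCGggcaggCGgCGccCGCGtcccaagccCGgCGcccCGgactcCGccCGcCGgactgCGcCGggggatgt
Kcng3: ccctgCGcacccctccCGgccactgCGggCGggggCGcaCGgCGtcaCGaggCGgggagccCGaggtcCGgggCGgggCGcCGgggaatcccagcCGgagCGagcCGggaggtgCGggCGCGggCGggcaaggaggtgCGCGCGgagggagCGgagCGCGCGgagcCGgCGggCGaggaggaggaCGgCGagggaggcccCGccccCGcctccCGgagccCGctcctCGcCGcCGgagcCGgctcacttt

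The Kcnh1 window holds 17 CG sites, and 23.5% of the 32851 RefSeq promoter windows in the table hold at least as many. Kcnh5, with 16 sites, has nearly the same number. The windows of Kcnj4 and Kcng3 are far denser, with 35 sites (at least as many in 2.97% of all windows) and 41 sites (1.09%). Kcnip4, the fourth member past the 2-fold threshold described next, has 2 listed starts with 6 and 5 sites (50.4% and 55.6%). Among the 4 members past 2-fold the number of sites thus ran from 5 to 41. Over the 91 windows read, which belong to 66 of the subunit genes, the median was 7 sites (quartiles 3.5 and 16.5). Over all windows in the table it was 6 (quartiles 2 and 16). Windows on chromosome 18, where Kcng2 and Kcnn2 lie, were left out of the subunit windows but not of the others. These counts describe the sequence and say nothing of its methylation in the libraries.

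Kcnh1 encodes the pore-forming subunit of the ether-a-go-go channel, a slowly activating voltage-gated channel of neurons whose human variants cause developmental disorders with seizures. It was measured at 5.08 and 4.26 FPKM in the cKO libraries, against 0.0616, 0.0433 and 0.0953 FPKM in the control libraries. Both cKO libraries lay far above all control libraries. Its control mean was under the minimum of 0.1 FPKM, so that it entered the test through its level in cKO. With a mean of 4.67 ± 0.579 FPKM in cKO (SD, n = 2) and 0.0667 ± 0.0264 FPKM in control (SD, n = 3), the means differed by 70.0-fold. The log2 fold change was 4.84 (SE 0.36, adjusted p = 1.2e-04 in limma), which is the 30th largest increase and the 25th smallest p among the 14698 genes. At the estimated depths these levels correspond to about 300 fragments in each cKO library and to about 18, 5 and 7 fragments in the control libraries MG15, MG16 and MG17, if the longest transcript of 7242 bases is used. Without MG18 the adjusted p was 0.0270, and without MG19 it was 0.0214, with a log2 fold change between 4.72 and 4.97 whichever library was left out. Kcnh1 lies on chromosome 1 from 192190774 to 192510159 (GRCm38, plus strand), and its 3′ end overlaps the oppositely oriented gene Hhat. Hhat, an acyltransferase that modifies Hedgehog proteins, was measured at 0.550 and 0.617 FPKM in cKO and 0.966, 0.329 and 0.683 FPKM in control, with overlapping groups and almost no change (-0.06 on the log2 scale, adjusted p = 0.969 in limma).

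The other members of the Kcnh family were examined beside it, a choice made after the values were seen. Kcnh5, the second ether-a-go-go channel, was measured at 3.61 and 6.33 FPKM in the cKO libraries, against 3.01, 2.70 and 4.40 FPKM in the control libraries, and the groups overlapped (log2 fold change 0.52, SE 0.31, adjusted p = 0.544 in limma). In the control cortex Kcnh5 was thus the ether-a-go-go subunit with the higher level per length, whereas in the cKO cortex Kcnh1 and Kcnh5 were at similar levels. Kcnh2, the ERG channel that repolarises the heart, stood at 3.62 and 1.49 FPKM in cKO and 1.98, 1.81 and 1.41 FPKM in control, and Kcnh7, the ERG channel with the highest level here, at 5.66 and 9.19 FPKM in cKO and 7.20, 8.38 and 8.02 FPKM in control. In both genes the groups overlapped. The ELK channels Kcnh3, Kcnh4 and Kcnh8 had log2 fold changes of 0.33, 0.68 and 0.29, with adjusted p values of 0.689, 0.533 and 0.680 (limma). Kcnh6 had at most 0.152 FPKM in any library and was not tested. Of the 7 Kcnh genes tested, Kcnh1 was the only one with an unadjusted p under 0.05.

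**Figure D1:**
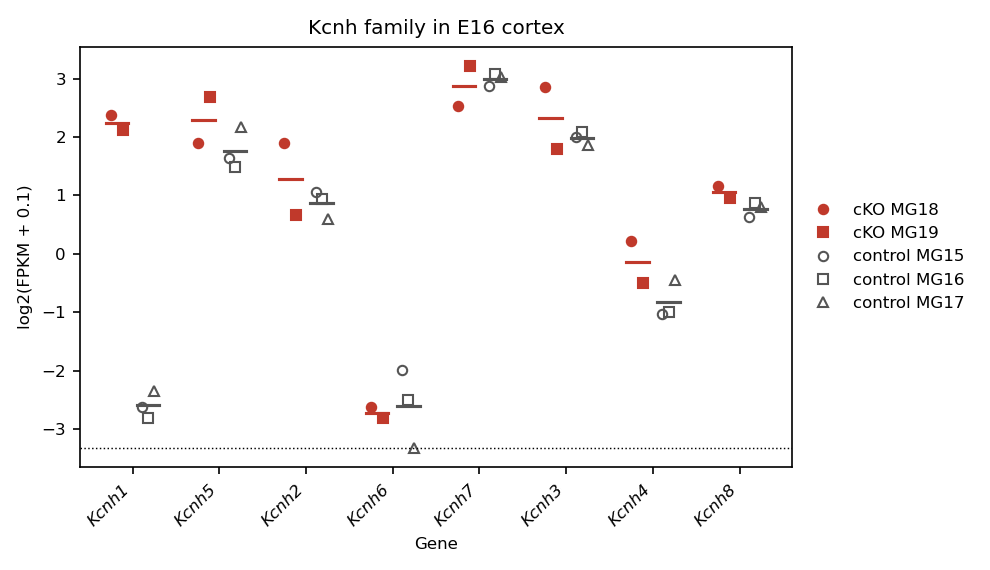
Level of each of the 8 Kcnh genes, as log2(FPKM + 0.1), in the 2 cKO libraries (filled red) and the 3 control libraries (open grey), with a bar at each group mean and a dotted line at the value of 0 FPKM. The Kcnh1 points of cKO, at 5.08 and 4.26 FPKM, lie in the range of the other Kcnh genes, while its control points, at 0.0433 to 0.0953 FPKM, lie near the dotted line beside Kcnh6.

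Of the 91 subunit genes, 75 averaged 0.1 FPKM or more in the 5 libraries and entered the test. Of the 16 others, 6 (Kcna10, Kcnk15, Kcnk16, Kcnk18, Kcnk7 and Kcnmb3) were listed at 0 in every library. With the unadjusted p under 0.05 and a change of over 2-fold as thresholds, 3 members were higher in cKO (Kcnh1, Kcnj4 and Kcnip4), where 2.88% of all genes tested passed in that direction, and 1 was lower (Kcng3), where 1.16% did. At over 1.5-fold, 9 members were higher, where 4.94% of all genes passed, and 2 were lower (Kcng3 and Kcnk1), where 2.64% did. Kcnh1 alone passed an adjusted p under 0.05 upward (background 1.10%), and 0 members passed downward in limma (background 0.163%). At an unadjusted p under 0.05 alone, 14 of 75 members passed in either direction (18.7%, background 11.5%). The calls depended on single libraries: without MG19, 10 members passed p and 2-fold upward and 0 downward, where 562 and 210 of 14631 genes did. Downward, 2 members passed without MG15, where 151 of 14710 genes did, and 2 passed without MG18, where 313 of 14623 did. Of the 11 calls at 1.5-fold, those of Kcnh1, Kcnj4, Kcnip4 and Kcnma1 were kept whichever library was left out, and 7 were lost without at least 1 library. With 1 FPKM added in place of 0.1, Kcnj4, Kcnip4 and Kcng3 had log2 fold changes of 0.79, 0.87 and -0.55 and were under 2-fold. Without a filter on low levels Kcnv2, a silent subunit known from photoreceptors, was called too, at 0.160 and 0.195 FPKM in cKO and 0.00479, 0 and 0 FPKM in control.

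Over the members as a whole, more genes were above 0 than below. The log2 fold change was above 0 in 52 of the 75 members (69.3%) and in 47.8% of all genes tested, with a median of 0.31 over the members and -0.02 over all genes. Both cKO libraries exceeded all 3 control libraries in 25 members (33.3%, background 14.5%) and lay below all of them in 9 (12%, background 16.3%). Leaving out a library lowered the median to 0.15 without MG17 and 0.18 without MG18, and it was 0.16 with 1 FPKM added in place of 0.1 and 0.12 after quantile normalization. When MG15, MG16, MG17, MG18 and MG19 were left out in turn, every cKO library was higher in 38.7, 40, 40.5, 42.7 and 50.7% of the members (backgrounds 19.3, 20.6, 20.1, 25.9 and 28.9%). Every cKO library was lower in 12, 14.7, 14.9, 22.7 and 21.3% of the members (backgrounds 20.9, 22.7, 25.5, 30.5 and 29.2%). Most members had low levels, with a median of 2.21 FPKM against 9.02 FPKM over all genes tested, and only 11 members averaged 10 FPKM or more.

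The marker lists of several cell types also had medians away from 0. For comparison, 47.8% of all genes tested were above 0 and 11.5% had an unadjusted p under 0.05 in limma. Markers of ventral telencephalon and interneurons had log2 fold changes above 0 in 14 of 15, 7 of them with an unadjusted p under 0.05, with a median of 0.63 and sums of 229.5 to 369 FPKM in cKO and 202 to 244 FPKM in control. The exception was Calb2, the calcium-binding protein calretinin, at 7.12 and 5.85 FPKM in cKO and 13.1, 11.6 and 11.8 FPKM in control, which had the smallest p of that list (log2 fold change -0.90, adjusted p = 0.0529 in limma). Progenitor markers were below 0 in 10 of 12 (median -0.51), 6 of the 10 with an unadjusted p under 0.05. Projection neuron markers had a median of 0.01, with 6 of 12 above 0 and 1 of the 12 with an unadjusted p under 0.05. Microglia markers were above 0 in 7 of 9, 4 of them with an unadjusted p under 0.05 (median 0.67, sums 49.4 to 53.7 FPKM in cKO and 24.7 to 45.9 FPKM in control). Oligodendrocyte lineage markers were above 0 in 6 of 7, 3 with an unadjusted p under 0.05 (median 0.68, sums 28.7 to 36.7 FPKM in cKO and 18.8 to 25.9 FPKM in control) and astrocyte markers in 7 of 8, also 3 with an unadjusted p under 0.05 (median 0.37, sums 67.7 to 91.9 FPKM in cKO and 51.4 to 88.6 FPKM in control). Gfap, an intermediate filament of astrocytes and radial glia, was the only gene of the marker lists past the adjusted threshold, at 2.91 and 2.52 FPKM in cKO and 0.833, 0.424 and 0.224 FPKM in control (log2 fold change 2.37, adjusted p = 0.0362 in limma). Endothelial and mural markers, at sums of 124 to 126 FPKM in cKO and 108 to 146 FPKM in control, were above 0 in 6 of the 8 tested (median 0.32). An unadjusted p under 0.05 was found for 1 of these 8. Erythroid markers were above 0 in 3 of 7 (median -0.20, 444 to 507 FPKM in cKO and 584 to 919 FPKM in control). An unadjusted p under 0.05 was found for 3 of these 7, with 1 higher and 2 lower in cKO. Of 6 choroid plexus markers 2 were high enough to test. Both were below 0, 1 of them with an unadjusted p under 0.05. No marker of these lists was at 0 in all libraries. The part of cell composition in the potassium channel values was not tested, and in bulk tissue fewer cells of a type and less RNA per cell cannot be told apart.

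**Figure D2:**
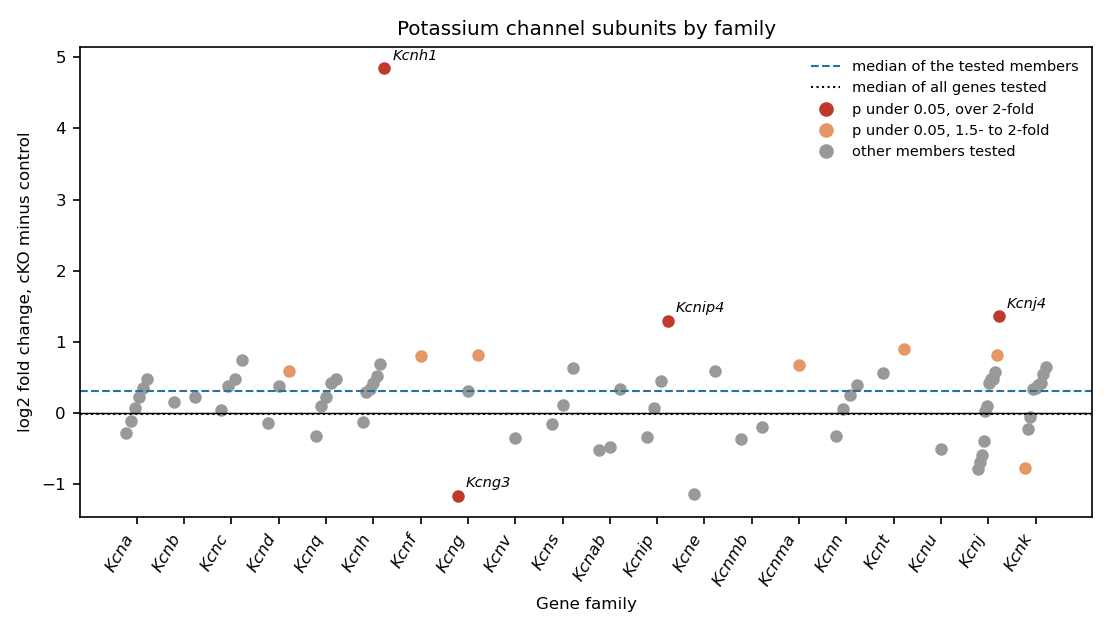
log2 fold change (cKO minus control) of the 75 tested subunits, grouped by gene family along the horizontal axis, with the medians of the members (0.31, dashed) and of all genes tested (-0.02, dotted). Kcnh1 stands at 4.84, Kcnj4 at 1.36 and Kcnip4 at 1.30, Kcng3 at -1.16, and every other tested member but Kcne3, at -1.14, lies within 1 of 0.

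The voltage-gated pore-forming subunits, which open on depolarization, had 22 of 27 tested genes above 0 and a median log2 fold change of 0.33. Kcnq3, a subunit of the M current that restrains firing, stood at 9.07 and 9.35 FPKM in cKO and 7.57, 10.5 and 8.03 FPKM in control, with overlapping groups (log2 fold change 0.09). The Kcnd genes encode the pore of the A-type current, a fast transient current of dendrites. Kcnd2 was measured at 7.98 and 5.88 FPKM in cKO, against 4.99, 4.16 and 4.43 FPKM in control, so that both cKO libraries were higher (log2 fold change 0.59, SE 0.22, adjusted p = 0.354 in limma). Kcnd2 overlaps 3 annotated genes on its own strand. It was no longer past the threshold without MG16, MG17 or MG18, at log2 fold changes of 0.53, 0.58 and 0.37. Its partner Kcnd3 was 13.5 and 13.5 FPKM in cKO and 10.2, 11.4 and 9.56 FPKM in control, also without overlap (log2 fold change 0.38, adjusted p = 0.438 in limma). Kcna3, a Shaker-type subunit also known from T cells, showed 18.3 and 15.9 FPKM in cKO and 11.3, 14.8 and 14.2 FPKM in control, with no overlap and a log2 fold change of 0.35 (adjusted p = 0.498 in limma). The 21 other tested genes of the class had log2 fold changes from -0.33 to 0.74, 16 of them above 0, and none passed the unadjusted threshold.

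Silent modifier subunits form no channel alone and join Kcnb subunits to shift their gating. In this class of 8 tested genes, members passed the unadjusted thresholds in both directions. Kcng3 was measured at 0.563 and 0.337 FPKM in the cKO libraries, against 1.22, 1.38 and 0.786 FPKM in the control libraries. Both cKO values were below every control value (log2 fold change -1.16, SE 0.37, adjusted p = 0.276 in limma). Without MG19 the log2 fold change was -0.86, its p was over 0.05 and the call was lost. Kcng1 was 1.57 and 2.11 FPKM in cKO and 0.927, 0.759 and 1.36 FPKM in control (log2 fold change 0.82, adjusted p = 0.395 in limma), and Kcnf1 was 3.79 and 2.90 FPKM in cKO and 1.91, 1.91 and 1.75 FPKM in control (log2 fold change 0.80, adjusted p = 0.246 in limma). Both were higher in every cKO library and passed the 1.5-fold threshold, in the direction opposite to Kcng3. The call of Kcng1 was lost without MG15, MG16 or MG19 (log2 fold changes 0.78, 0.65 and 0.62) and that of Kcnf1 without MG18 (0.61). Kcnv1, the silent subunit with the highest level, stood at 9.25 and 10.8 FPKM in cKO and 10.9, 12.01 and 15.8 FPKM in control, below all controls but not past the test (log2 fold change -0.35, adjusted p = 0.542 in limma). Kcns2 was 1.91 and 1.58 FPKM in cKO and 1.23, 1.17 and 0.884 FPKM in control (log2 fold change 0.63, adjusted p = 0.448 in limma). Kcnb2, a pore-forming partner of these subunits, had a log2 fold change of 0.15 with overlapping groups.

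**Figure D3:**
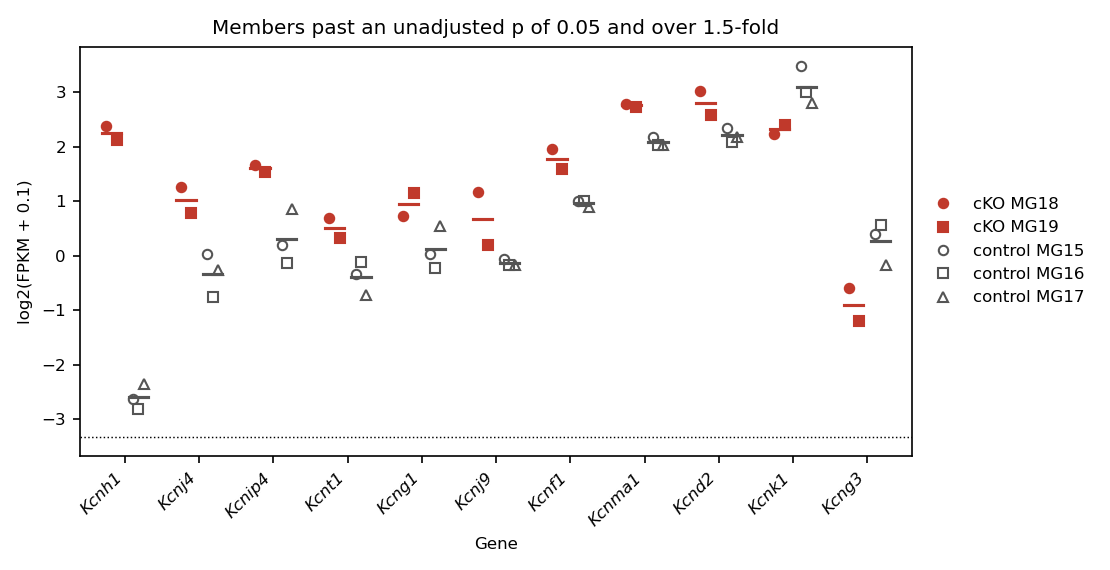
Level, as log2(FPKM + 0.1), of the 11 subunits past an unadjusted p of 0.05 and over 1.5-fold, in the 2 cKO libraries (filled red) and the 3 control libraries (open grey), with a bar at each group mean and a dotted line at 0 FPKM. The groups do not overlap in any of the 11, which their choice by p and fold in these same libraries favours. Of all genes tested, 14.5% had both cKO libraries above all controls and 16.3% had both below. The spread between the 2 cKO libraries is widest for Kcnj9, at 2.15 and 1.05 FPKM.

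Auxiliary subunits were the only class of the 6 with a median below 0 (-0.20 over 11 tested genes, 5 above 0). Kcnip4, a calcium-binding KChIP protein that assembles with Kcnd channels, had the largest change of the class. It was measured at 3.08 and 2.81 FPKM in the cKO libraries, against 1.04, 0.815 and 1.71 FPKM in the control libraries, and the groups did not overlap (log2 fold change 1.30, SE 0.33, adjusted p = 0.150 in limma). Kcnip4 spans 48389502 to 49524907 on chromosome 5 (GRCm38), and 24 annotated genes on the same strand lie within or across it, so that its reads may be shared with them. None of the other KChIP genes passed the test. Kcnip1 was 11.4 and 9.68 FPKM in cKO and 12.9, 14.3 and 12.96 FPKM in control (log2 fold change -0.34, adjusted p = 0.476 in limma), with both cKO libraries lower. Kcnip2 was 8.28 and 8.62 FPKM in cKO and 7.46, 4.70 and 6.57 FPKM in control, with both cKO libraries higher (log2 fold change 0.46, adjusted p = 0.482 in limma). Kcnip3 was 8.05 and 6.84 FPKM in cKO and 8.32, 8.05 and 5.19 FPKM in control, with overlapping groups (log2 fold change 0.08). Kcnmb4, the neuronal beta subunit of the large-conductance calcium-activated channel, stood at 23.1 and 29.8 FPKM in cKO and 36.1, 29.8 and 25.4 FPKM in control, with overlapping groups (log2 fold change -0.20, adjusted p = 0.711 in limma). The 6 other genes of the class ranged from -1.14 to 0.59. Of these Kcnab2, a beta subunit of Kcna channels that was picked out after its value was seen, had the smallest p, under 0.05 before adjustment (3.72 and 3.73 FPKM in cKO, 5.96, 5.84 and 4.43 FPKM in control, log2 fold change -0.51, adjusted p = 0.418 in limma).

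The class of channels gated by intracellular calcium or sodium had 6 of 8 genes above 0 and a median of 0.33. It holds Kcnu1, which was placed there by its name and is not gated by these ions (log2 fold change -0.50, overlapping groups). Kcnma1, the pore of the large-conductance calcium-activated channel, was measured at 6.75 and 6.55 FPKM in the cKO libraries, against 4.43, 3.99 and 3.97 FPKM in the control libraries. The replicates of each group lay close together and the groups did not overlap (log2 fold change 0.68, SE 0.20, adjusted p = 0.222 in limma). The log2 fold change of its beta subunit Kcnmb4 was of the opposite sign, and the difference between these 2 genes was not tested. Kcnt1, a sodium-activated channel in which human variants cause epilepsy, was 1.52 and 1.15 FPKM in cKO and 0.694, 0.823 and 0.508 FPKM in control (log2 fold change 0.90, adjusted p = 0.359 in limma), and its call was lost without MG15, MG17 or MG18 (0.93, 0.73 and 0.72). Its relative Kcnt2 was 3.805 and 4.44 FPKM in cKO and 2.55, 2.43 and 3.31 FPKM in control, also without overlap, past the unadjusted p but under 1.5-fold (log2 fold change 0.57, adjusted p = 0.413 in limma). The small-conductance channels, which shape the afterhyperpolarization, overlapped between groups: Kcnn2 was 5.39 and 9.42 FPKM in cKO and 7.55, 11.1 and 8.41 FPKM in control (log2 fold change -0.32), and Kcnn1 was 4.58 and 5.84 FPKM in cKO and 3.79, 3.30 and 4.71 FPKM in control (log2 fold change 0.40).

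Inward rectifiers pass potassium more readily into the cell than out of it and hold the resting potential. Kcnj4, a strong rectifier of forebrain neurons, was measured at 2.30 and 1.63 FPKM in the cKO libraries, against 0.924, 0.489 and 0.729 FPKM in the control libraries. Both cKO values exceeded every control value (log2 fold change 1.36, SE 0.35, adjusted p = 0.150 in limma). Kcnj9, a G protein-gated subunit, was 2.15 and 1.05 FPKM in cKO and 0.858, 0.793 and 0.786 FPKM in control (log2 fold change 0.81, adjusted p = 0.422 in limma), with MG18 well above the other libraries. Its log2 fold change was 0.33 without MG18 and 0.79 to 0.85 without a control library, and among these sets its p was under 0.05 only with all 5 libraries and without MG19, where the log2 fold change was 1.30. Kcnj3, the G protein-gated subunit with the highest level of the class, stood at 15.5 and 16.7 FPKM in cKO and 16.5, 18.5 and 11.1 FPKM in control, with overlapping groups (log2 fold change 0.10). Kcnj11, the pore of the ATP-sensitive channel, was 9.44 and 17.7 FPKM in cKO and 12.1, 10.4 and 7.25 FPKM in control, where MG19 alone was high (log2 fold change 0.42, and -0.04 without MG19, adjusted p = 0.611 in limma). Kcnj2, another strong rectifier, was 10.9 and 13.3 FPKM in cKO and 9.86, 6.59 and 9.93 FPKM in control, without overlap (log2 fold change 0.48, adjusted p = 0.457 in limma). Kcnj10, the rectifier of astrocytes, was 1.76 and 1.79 FPKM in cKO and 1.06, 1.75 and 1.03 FPKM in control (log2 fold change 0.48, adjusted p = 0.579 in limma), beside the astrocyte marker values given above. Of the 12 genes tested 8 were above 0, and the median was 0.26.

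2-pore domain channels carry leak currents. The class had 9 tested genes with a median of 0.35, of which 6 were above 0. Kcnk1 was the only gene of the class past an unadjusted p under 0.05 and 1.5-fold. It was lower in cKO, at 4.60 and 5.17 FPKM, against 11.1, 7.92 and 6.82 FPKM in control, with no overlap (log2 fold change -0.78, SE 0.24, adjusted p = 0.243 in limma). Without MG15 its log2 fold change was -0.58, just under 1.5-fold, and without MG18 it was -0.70 and its p was over 0.05. Kcnk2, a channel opened by stretch and by lipids, was 16.4 and 14.9 FPKM in cKO and 10.6, 11.9 and 9.60 FPKM in control, higher in every cKO library and past the unadjusted p, but under 1.5-fold (log2 fold change 0.55, adjusted p = 0.269 in limma). Its close relative Kcnk10 was 23.5 and 29.1 FPKM in cKO and 29.9, 28.9 and 23.2 FPKM in control, with full overlap (log2 fold change -0.06, adjusted p = 0.919 in limma). Kcnk12, a member of the THIK channels, was 2.47 and 2.84 FPKM in cKO and 2.27, 2.53 and 1.29 FPKM in control, again with overlapping groups (log2 fold change 0.42, adjusted p = 0.634 in limma).

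The summed level of a class shows how much channel mRNA a library held, since FPKM is per length. The voltage-gated subunits summed to 170 and 165 FPKM in the cKO libraries, against 142, 149 and 118 FPKM in the control libraries. Both cKO sums were higher (ratio of means 1.23, p = 0.1 in a two-sided exact permutation test, the smallest p that these 5 libraries allow, and 0.467 after adjustment over the 7 sums compared). The inward rectifiers summed to 43.8 and 53.3 FPKM in cKO and 43.5, 40.9 and 32.4 FPKM in control, where MG18 was nearly equal to MG15 (ratio 1.25, exact permutation p = 0.2). Auxiliary subunits summed to 69.3 and 70.5 FPKM in cKO and 84.4, 77.8 and 66.2 FPKM in control (ratio 0.918, exact permutation p = 0.5). The calcium- or sodium-activated, 2-pore domain and silent classes had ratios of 1.17, 1.03 and 0.988, and in each the groups overlapped (exact permutation p = 0.2, 0.9 and 1). All 91 members together summed to 382 and 396 FPKM in cKO and 370, 367 and 310 FPKM in control (ratio 1.12, exact permutation p = 0.3).

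**Figure D4:**
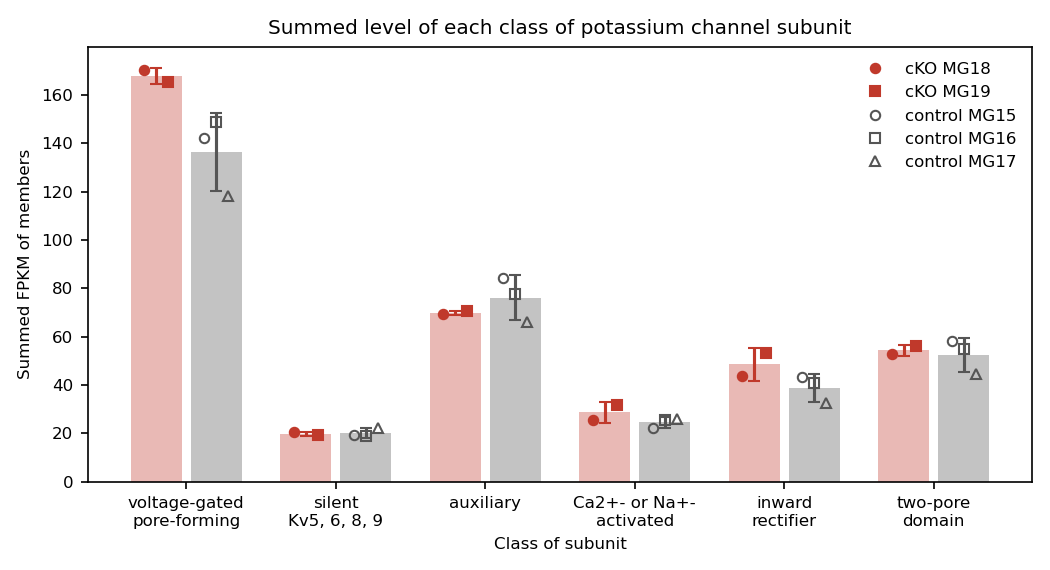
Summed FPKM of the members of each class in the 2 cKO libraries (red) and the 3 control libraries (grey), with bars at group means, error bars of 1 SD and a point per library. The voltage-gated sums of cKO, 170 and 165 FPKM, lie above the control sums of 118 to 149 FPKM, and the bars of the silent and 2-pore classes are nearly level.

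Genes that work with these channels were read from lists of associated proteins and of potassium transport. Of 17 tested associated proteins 14 were above 0 (median 0.22, where 47.8% of all genes were above 0), 0 passed 2-fold in limma, and Pex5l, which controls HCN channel trafficking, and Hcn2, a channel of the hyperpolarization-activated current, passed 1.5-fold upward, where 4.94% of all genes did, with log2 fold changes of 0.94 and 0.70. Those with the highest level were Adam22, a receptor for the Lgi proteins, at 37.8 and 40.1 FPKM in cKO and 23.4, 24.3 and 39.0 FPKM in control, and the scaffold Dlg4, at 28.9 and 25.3 FPKM in cKO and 24.0, 27.9 and 20.2 FPKM in control. Both overlapped between the groups. Of 14 transport genes 11 were above 0 (median 0.30), 0 passed 2-fold in limma and 3 were higher past 1.5-fold, against the same background of 4.94%, among them the sodium pump subunit Atp1b1, at a log2 fold change of 0.68, and the potassium chloride cotransporter Slc12a5, at 0.78. None of the genes past 1.5-fold in either list passed the adjusted p, which lay between 0.315 and 0.409 in limma. The highest level of the list was that of Atp1b3, at 29.7 and 31.3 FPKM in cKO and 26.3, 27.9 and 28.5 FPKM in control (log2 fold change 0.15, adjusted p = 0.721 in limma).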

How the data were processed

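RNA was depleted of ribosomal RNA and sequenced as strand-specific paired reads. The authors mapped reads with TopHat2 to mm10, removed duplicates, low-quality alignments, improper pairs and reads with several positions, and deposited FPKM values per gene and library from Cuffdiff and cummeRbund. Tool versions and the strand setting were not given in the sources read. The members, classes and lists were chosen with earlier results of these data known. The values of some genes are not reported here.

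From the deposited FPKM, changes of cKO minus control were estimated in R 4.3.3 by limma 3.58.1 on log2(FPKM + 0.1), with a mean trend in eBayes (6.23 prior degrees of freedom), for the 14698 genes that averaged 0.1 FPKM or more. Names of small RNAs were left out (57 past the minimum). P-values were adjusted over all genes tested after Benjamini and Hochberg. The cutoffs of p under 0.05 with over 2-fold or 1.5-fold were those of the study, which applied them to p-values of Cuffdiff. Here they were applied to p-values of limma, so the counts are not directly comparable with those of the study. The adjusted threshold was added here. Of the 91 members, those named in the text are those past 1.5-fold with p under 0.05 and the 4 with the highest mean of each class, and other genes were picked after their values were seen. From the 2 further lists, those named are the 2 with the highest mean, and genes past 1.5-fold were added after their values were seen. Sums over a class were compared by exact permutation tests. Positions are of GENCODE M21 (GRCm38). Of the 91 genes 38 overlap a gene on the opposite strand and 17 a gene on the same strand, and their values are uncertain to that extent. Depth was estimated roughly, so no counting intervals are given. The test was checked on simulated data of 14698 genes: with both thresholds it found 47% of genes given a log2 change of 1 and 100% of those given 2, with 140 false calls, and at an adjusted p under 0.05 it found 23% and 81%, with 6 false calls. The simulated log values were independent and normal, with equal spread in both groups and no differences in depth or between libraries. The spread of each gene was drawn around its trend with level in the form that limma assumes, which favours the test. The numbers of false and missed calls in the real libraries may therefore differ. Figures and joins were made in Python 3.11.15 with pandas 2.3.3, numpy 2.4.6 and matplotlib 3.10.9.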

Additional observations from a re-analysis of the deposited data

How the results depend on the processing

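With 13 alternatives (pseudocounts of 1 and 0.01, a minimum mean of 1 FPKM, no filter, median ratio scaling, quantile normalization, sex as a covariate, no trend, and each library left out), Kcnh1 was past the adjusted threshold in all, at log2 fold changes from 2.41 to 5.98 and an adjusted p from 2.5e-05 to 0.0270. Sex was inferred from the level of Ddx3y, which was above 1 FPKM in MG15, MG17 and MG18 and not in MG16 and MG19. Each group thus held libraries of both kinds. With 1 FPKM added, 154 of all genes were higher and 25 lower past 2-fold, and 1 member was higher and 0 were lower. With a minimum mean of 1 FPKM, where fewer genes were tested, these counts were 172 and 64 of all genes (100 and 13 at the adjusted threshold) and 0 members lower. Quantile normalization gave 288 lower genes and a log2 fold change of 0.00052 for Kcnk10, which reversed its sign. Leaving out each library in turn gave 389 to 562 higher and 151 to 313 lower genes past 2-fold, 34 to 133 and 2 to 20 at the adjusted threshold, and 3 to 10 members higher and 0 to 2 lower. It also reversed the sign of small changes, with ranges of -0.21 to 0.10 for Kcnk10, -0.14 to 0.20 for Kcnip3, -0.12 to 0.25 for Kcnj3, -0.72 to 0.079 for Kcnn2 and -0.036 to 0.87 for Kcnj11. The cause of these reversals and lost calls was not tested. Where a cKO library was left out, limma took the lone cKO library to vary like the controls. No paired analysis was possible because the replicate labels do not pair cKO with control animals. With 2 cKO libraries of about 8200000 and 9700000 fragments, differences of genes near 0.1 FPKM rest on few fragments.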

Other observations

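Several genes whose names also begin with Kcn are not in the set described above and were read separately. Kcnq1ot1, the long RNA transcribed from the paternal allele antisense to Kcnq1, stood at 1.55 and 2.96 FPKM in cKO and 1.44, 2.65 and 1.83 FPKM in control (log2 fold change 0.16, adjusted p = 0.882 in limma), and Kcnq1 itself, a cardiac and epithelial channel, had a log2 fold change of -0.33 with overlapping groups. Kcne1l, a Kcne-type auxiliary subunit left out of the set only by the form of its name, was 14.5 and 10.3 FPKM in cKO and 10.999, 9.15 and 12.9 FPKM in control. Kcnd3os, annotated antisense to Kcnd3, was 0 and 0.651 FPKM in cKO and 0.260, 0.166 and 0.529 FPKM in control, and Kcnmb4os1 was above 0 in 1 control library only, at 0.136 FPKM. Rest, the repressor that holds many neuronal channel genes silent outside neurons, was 5.29 and 5.21 FPKM in cKO and 4.80, 5.79 and 4.52 FPKM in control, with overlapping groups (log2 fold change 0.07, adjusted p = 0.920 in limma). In none of these genes were the groups separate.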
